A study of Mus musculus with 6 samples.

Results

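The spliceosome removes introns from pre-mRNA, and its core is built from small nuclear ribonucleoproteins (snRNPs), particles in which a small nuclear RNA is packed with proteins. The genes described here mostly encode those proteins and the factors that recognise the branch point and the 3′ splice site. They were chosen by symbol, namely every gene row starting with Sf3a or Sf3b and a digit, Snrp, Prpf, or Lsm and a digit, and 11 further genes (Phf5a, U2af1, U2af2, U2surp, Dhx15, Ddx46, Zrsr2, Sugp1, Rbm17, Sf1 and Puf60). The rule took 59 of the 26469 gene rows in the table, and 58 of them passed the filter on low counts. The exception was Snrpn, an imprinted relative of Snrpb expressed mainly in neurons, which was at 0.085 to 0.23 CPM (counts scaled to library size) in the 6 libraries. One member, Snrpert, is annotated as a processed pseudogene whose sequence matches 276 of 279 bases (98.9%) of a Snrpe transcript, so reads of the pair may have been divided between them and both values are uncertain.

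RNA was sequenced from 6 cultures of CD4+ T cells taken from mouse spleen, 3 of a control and 3 of a mutant genotype. All 6 carried the conditional allele written Sf3b1K700E/fl. Control cells had no Cre and are labelled WT. Mutant cells (Sf3b1K700E/fl /Cd4Cre) also carried Cd4Cre, a recombinase driven by Cd4 sequences that acts during thymic development, before the naive cells were taken, and are labelled Sf3b1 mutation. Naive cells of both groups were stimulated over 36 h with TGF-β (5 ng/ml), hamster antibodies to CD3 and CD28, and antibodies to IL-4 and IFNγ, a mixture that drives differentiation towards regulatory T cells. Age is not given, nor whether the samples came from separate animals, so the p-values reflect the spread among these 6 samples only. By its sex-linked genes control 1 was female and the other libraries male, so it did not share an animal with them. The spread among the other libraries may be technical.

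Library totals ran from 33633196 to 43928723 counts. All 7 T cell genes examined were at 72.2 CPM or more in every library, with Cd4 at 482 ± 110 CPM (SD, n = 3) over the controls and 464 ± 32.0 CPM over the mutants. Control 1 stood apart in sex, with Xist at 3475 CPM against at most 0.66 CPM in the other 5 libraries and with 4 Y-linked genes (Ddx3y, Eif2s3y, Kdm5d and Uty) at or near 0. Mutant 2 held the most B cell RNA (6 genes, summed level 43.4 CPM, against 1.94 to 5.17 CPM in control, 3.73 CPM in mutant 1 and 8.59 CPM in mutant 3). In mutant 1 the mean of 16 genes of the naive and quiescent T cell state lay 1.23 above the control mean on the log2 scale, and that of 16 activation genes 0.67 below it (level -0.67). In bulk RNA, fewer cells of a type and less RNA per cell cannot be told apart.

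As background, splicing begins when the U1 snRNP binds the 5′ splice site while SF1 and the U2AF pair mark the branch point and the 3′ splice site. The U2 snRNP then replaces SF1, and its SF3b complex, with SF3B1 as scaffold, clamps the branch point adenosine. The U4/U6.U5 tri-snRNP joins afterwards, and helicases remodel the assembly into its active form. Cancer-associated SF3B1 changes such as K700E lie in the HEAT repeats of the protein, weaken its contact with SUGP1 and lead to use of cryptic 3′ splice sites. Counts per gene do not show such use.

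The altered codon is shown because it defines the mutant group. In the mouse gene it is codon 700 of 1304, in exon 15 of 25, at chr1:55000365-55000367 on the minus strand of GRCm38 (GENCODE M21 annotation; the submitters name GRCm39, whose coordinates differ). The reference coding strand is printed over 27 bases (chr1:55000353-55000379) with the lysine codon in capitals.
Sf3b1 codon 700: gatgagcagcagAAAgttcggaccatc
Deposited counts pool reads of both alleles, so they do not check whether the codon was altered in the mutant libraries.

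Promoters are shown for 3 members, Sf3b1 (nearly flat), Snrpf (furthest below its control mean in mutant 1) and Prpf19 (also lower, with an ETS motif). Each is the 250 bases before the start site, from RefSeq on GRCm38.p6, 5′ to 3′ on the gene's strand. Capitals mark CCGGAAG, the core bound by ETS family factors, and GGGCGG, the GC box, on either strand. Sf3b1 lies at chr1:55027479-55027728 (minus strand), Snrpf at chr10:93589659-93589908 (minus strand) and Prpf19 at chr19:10894981-10895230 (plus strand, the upstream one of its listed starts).
Sf3b1: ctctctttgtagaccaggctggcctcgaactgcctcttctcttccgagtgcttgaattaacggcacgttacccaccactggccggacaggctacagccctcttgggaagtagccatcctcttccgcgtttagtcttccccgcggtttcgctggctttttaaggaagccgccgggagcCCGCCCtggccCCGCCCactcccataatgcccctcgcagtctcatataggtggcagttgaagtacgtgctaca
Snrpf: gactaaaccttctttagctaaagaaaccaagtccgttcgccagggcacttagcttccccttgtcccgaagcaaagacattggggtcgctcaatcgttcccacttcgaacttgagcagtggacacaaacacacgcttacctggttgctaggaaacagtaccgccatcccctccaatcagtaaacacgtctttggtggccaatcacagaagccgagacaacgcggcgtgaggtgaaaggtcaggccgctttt
Prpf19: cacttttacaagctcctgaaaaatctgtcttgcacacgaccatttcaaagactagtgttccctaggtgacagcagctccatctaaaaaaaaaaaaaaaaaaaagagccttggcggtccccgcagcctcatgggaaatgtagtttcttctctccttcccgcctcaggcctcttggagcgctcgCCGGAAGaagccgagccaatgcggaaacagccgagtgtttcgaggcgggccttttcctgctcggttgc
The Sf3b1 window holds 2 GC boxes, the Prpf19 window 1 ETS core, and the Snrpf window neither.

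Over 300-base windows (250 before to 50 after the start), 46 of the 59 members had a RefSeq promoter entry. CCGGAAG was present in 16 of the 46 (34.8%), against 19.9% of 10665 tested genes with an entry and 9.9% of all 27025 genes of the RefSeq promoter set. GGGCGG was in 32 of 46 members (69.6%) and 66.3% of tested genes. The E-box CACGTG, bound by MYC with MAX, was in 4 members (8.7%) and 11.6% of tested genes, and the NRF1 motif GCATGCGC in 4 members (8.7%) and 5.8%. CCAAT was in 45.7% of members and 43.2% of tested genes, TATAAA in 6.5% and 9.0%, and TGACGTCA, the cyclic AMP response element, in 6.5% and 3.5%. Motifs were searched on both strands, CCGGAAG and GGGCGG can overlap, and a match is a description of the letters only.

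The question was whether these genes differed between mutant and control cells. None did by the test. With edgeR's quasi-likelihood test, adjusted by Benjamini-Hochberg over all 18323 genes tested, 0 of 58 members passed an adjusted p of 0.05, and 0% of all genes did. Adjusted p-values of the members ran from 0.746 (Lsm10) to 0.995 (Sf3b4). At an unadjusted p under 0.05 edgeR also had 0 members, against 7.62% of all genes, limma-voom had 0, and DESeq2 had 0, with 0 members among its 100 called genes (0.64% of those given an adjusted p). Log2 fold changes (mutant minus control) ran from -0.44 (Prpf40b) to 0.18 (Ddx46), with a median standard error of 0.17.

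The members were measured more precisely than most genes. For 56 of 58 the 95% interval of the log2 fold change lay inside a 2-fold change in either direction (96.6%, against 55.6% of all genes), and for 41 it lay inside a 1.5-fold change (70.7%, against 25.2%). The intervals that reached past 2-fold were those of Prpf40b (-1.30 to 0.42) and Snrpf (-1.02 to 0.30). An interval inside these limits bounds the difference and does not show that the groups were equal.

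Most members had a slightly lower mean in mutant than in control cells. The sign was negative in 47 of 58 (81.0%, against 47.1% of all genes), and the median log2 fold change was -0.078, against 0.024 over all genes. The lower-mean count was 30 of 58 without mutant 1 (51.7%; 47.9% of all genes). It was 54 of 58 (93.1%) without control 1 or without mutant 3, and the share of all genes is not printed for those fits. It was 39 of 58 (67.2%) with upper quartile scaling and 40 (69.0%) with a filter of 1 CPM in 3 samples, against 43.0% and 45.5% of all genes. The groups did not overlap in 2 members, Sf3b5 and Lsm10, both lower in every mutant library (3.45% of members, against 7.48% of all genes, and 14.1% of all genes in either direction). No member was higher in every mutant library (6.6% of all genes). Without mutant 3, 22 members were lower in both remaining mutant libraries than in every control (37.9%, against 16.1% of all genes in that fit), and 2 (Snrpa1 and Snrpd1) had an unadjusted p under 0.05 in edgeR (3.45%, against 12.9% of all genes in that fit).

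**Figure D1:**
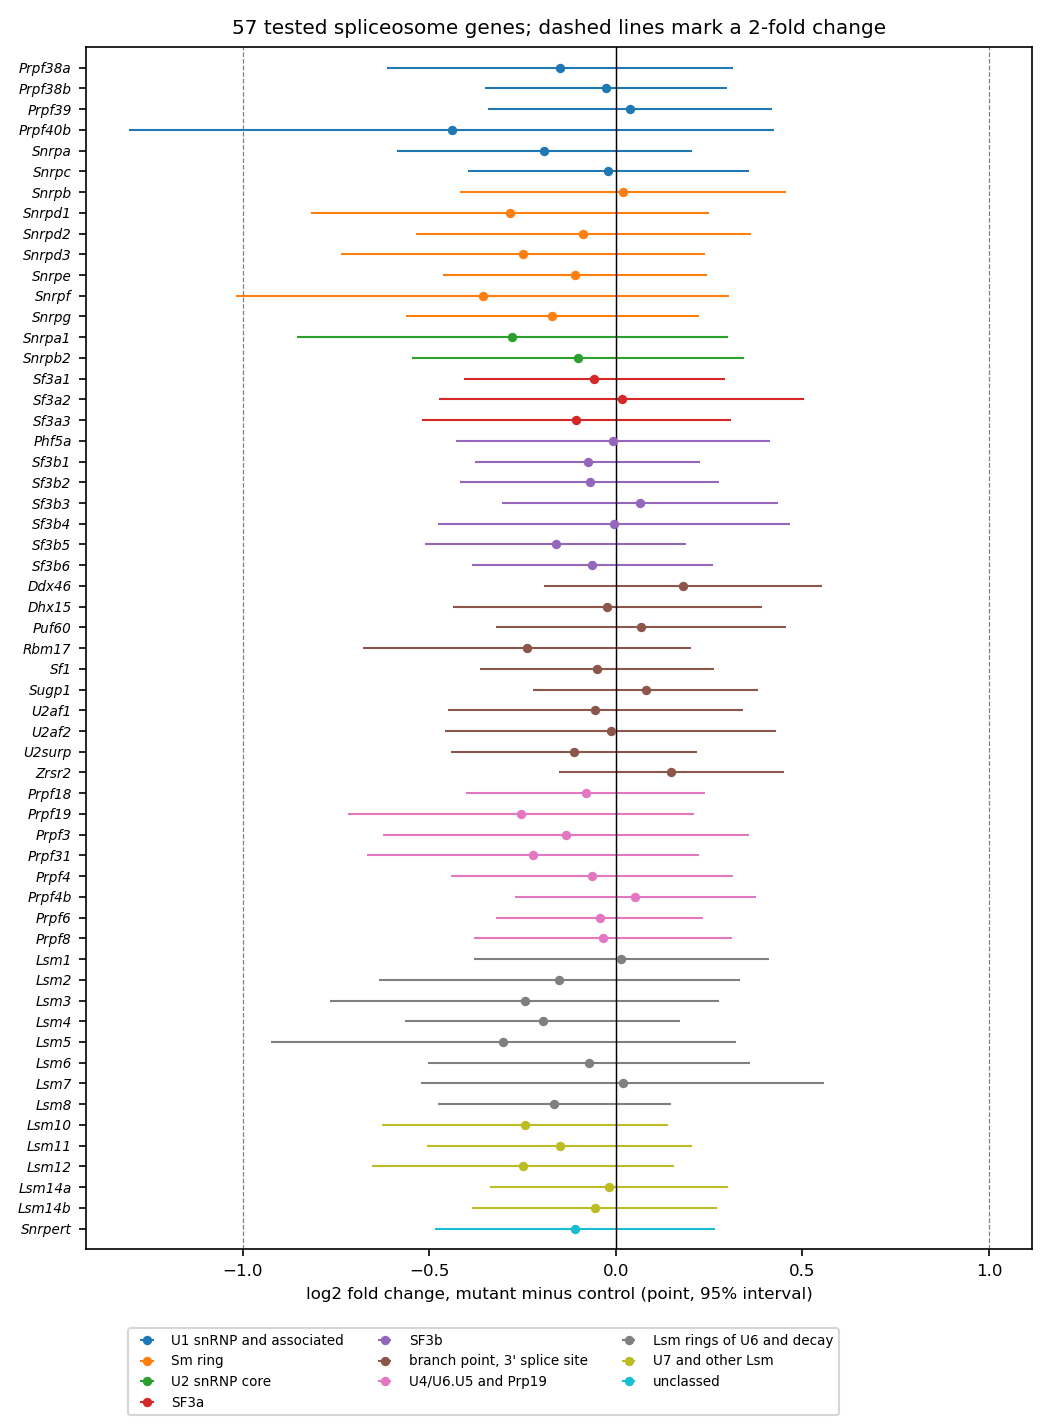
Log2 fold change (mutant minus control, x axis) of 57 tested members (y axis), coloured by class, with 95% intervals from edgeR's quasi-likelihood test; dashed lines mark a 2-fold change. Every interval crosses 0, and only those of Prpf40b and Snrpf reach past a dashed line.

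SF3b holds the branch point. Its scaffold gene Sf3b1 was at 632, 712 and 638 CPM in control 1, 2 and 3 and at 649, 593 and 639 CPM in mutant 1, 2 and 3. The groups overlapped, and mutant 1 was exceeded only by control 2. The log2 fold change was -0.075 ± 0.13 (SE; 95% interval -0.38 to 0.23; edgeR adjusted p = 0.888). Sf3b3, a WD-repeat platform for the scaffold, was at 460, 579 and 477 CPM in the controls and 486, 493 and 607 CPM in the mutants. Control 2 and mutant 3 were the high libraries for Sf3b3, and its log2 fold change was 0.066 ± 0.16 (SE). Sf3b2, which contacts the RNA upstream of the branch point, was at 307, 404 and 314 CPM in the controls and within 320 to 332 CPM in the mutants (log2 fold change -0.071 ± 0.15).

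Among the smaller SF3b genes, Phf5a, which forms the adenosine pocket with SF3B1, was at 57.4, 74.1 and 58.1 CPM in the controls and 54.8, 57.5 and 76.3 CPM in the mutants. Sf3b4, an RNA-binding subunit, was at 60.5, 86.1 and 70.4 CPM in the controls and 59.7, 66.4 and 90.3 CPM in the mutants. In both genes control 2 and mutant 3 were highest and the groups overlapped throughout. Sf3b6, the p14 subunit near the branch point, had 64.8, 77.5 and 66.4 CPM in the controls and 60.7, 69.8 and 69.4 CPM in the mutants. Log2 fold changes were -0.0074 ± 0.18 for Phf5a, -0.0049 ± 0.20 for Sf3b4 and -0.063 ± 0.14 for Sf3b6 (SE).

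Sf3b5, the smallest SF3b protein, was 1 of the 2 members without overlap. Its level was 21.8, 26.2 and 21.01 CPM in the controls and 19.98, 20.8 and 20.97 CPM in the mutants. The lowest control (21.01 CPM) and the highest mutant (20.97 CPM) were nearly equal, and under upper quartile scaling no member, Sf3b5 included, was separated in the lower direction. The log2 fold change was -0.16 ± 0.15 (SE; edgeR adjusted p = 0.799). Across the 7 SF3b genes, 6 were lower on average in the mutants, and the median log2 fold change was -0.063 (0.013 without mutant 1).

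**Figure D2:**
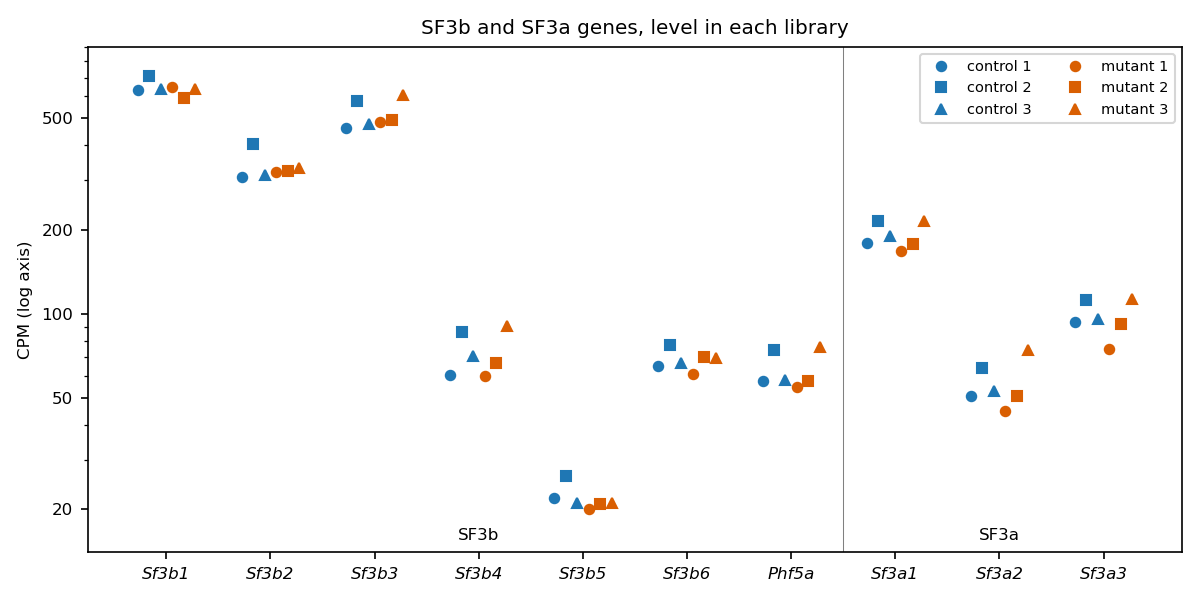
CPM (log axis) of the 7 SF3b and 3 SF3a genes in each library, control in blue and mutant in orange, with 1 marker shape per replicate number. Control 2 and mutant 3 are the highest libraries for Sf3b3, Sf3b4, Phf5a and the SF3a genes, while Sf3b1 spans only 593 to 712 CPM.

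Levels of different genes are compared per length, as CPM per kilobase of the principal GENCODE M21 transcript, a model of another build and annotation than the authors' count table. On this scale the 3 large SF3b genes were close, Sf3b3 at 112 ± 14.2, Sf3b1 at 107 ± 7.15 and Sf3b2 at 106 ± 16.7 CPM per kb in control cells (SD, n = 3), with differences smaller than their spread. Sf3b6 followed at 59.0 ± 5.85, Phf5a at 38.0 ± 5.69 and Sf3b4 at 37.8 ± 6.74 CPM per kb, the last 2 again within their spread. Sf3b5 was lowest at 5.99 ± 0.73 CPM per kb, over a transcript model of 3841 bases with only 258 coding bases. Per kilobase of coding sequence the order changed, with Phf5a at 192, Sf3b6 at 186, Sf3b1 at 169, Sf3b3 at 138, Sf3b2 at 130, Sf3b5 at 89.2 and Sf3b4 at 56.9 CPM in control cells. The rank of the small subunits therefore depended on the length model.

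The SF3a complex links SF3b to the rest of the U2 snRNP. Sf3a1 was at 178, 215 and 190 CPM in the controls and 167, 178 and 215 CPM in the mutants. Sf3a2 was at 50.6, 64.2 and 52.9 CPM in the controls and 44.7, 50.8 and 74.0 CPM in the mutants, and Sf3a3 at 93.5, 112 and 95.7 against 74.7, 92.0 and 113 CPM. In all 3 genes mutant 1 was the lowest library. Sf3a1 was highest in control 2 and Sf3a2 and Sf3a3 in mutant 3. Log2 fold changes were -0.058 ± 0.15, 0.016 ± 0.21 and -0.11 ± 0.18 (SE), and without mutant 1 all 3 were above 0.

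The U2 core proteins A′ and B″, which bind U2 RNA as a pair, come from Snrpa1 and Snrpb2. Snrpa1 was at 112, 146 and 111 CPM in the controls and at 69.8, 98.2 and 137 CPM in the mutants, a nearly 2-fold span within the mutant group. Its log2 fold change was -0.28 ± 0.25 (SE; edgeR adjusted p = 0.794), and -0.053 without mutant 1. Snrpb2 was at 58.7, 73.1 and 65.9 CPM in the controls and 46.1, 66.5 and 71.8 CPM in the mutants (-0.10 ± 0.19). Mutant 1 was lowest of the 6 libraries for both genes and control 2 highest.

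The Sm proteins form the ring shared by U1, U2, U4 and U5 RNAs. Of 7 tested Sm genes, 6 had lower means in mutant cells (median log2 fold change -0.17), and for all 7 mutant 1 was the lowest library (29.2% of all genes). Snrpf was at 34.2, 45.1 and 39.2 CPM in the controls and 18.1, 33.4 and 41.0 CPM in the mutants. Mutant 1 thus had a level 1.12 below the control mean on the log2 scale (-1.12), the largest such shift of any member, while mutant 3 lay above it (0.064). Snrpd1 was at 76.0, 96.5 and 81.3 CPM in the controls and 48.4, 69.5 and 90.6 CPM in the mutants. The log2 fold changes were -0.36 ± 0.29 for Snrpf and -0.28 ± 0.23 for Snrpd1 (SE; edgeR adjusted p = 0.778 and 0.782), and -0.072 and -0.067 without mutant 1. Snrpb was the exception in sign, with 121, 172 and 122 CPM in the controls and 119, 142 and 159 CPM in the mutants (0.019 ± 0.19). The copy Snrpert followed Snrpe, with log2 fold changes of -0.109 ± 0.16 and -0.110 ± 0.15 (SE).

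U1 recognises the 5′ splice site by base pairing of its RNA, which the protein of Snrpc stabilises, while that of Snrpa binds a stem-loop of U1 RNA, and Prpf39 is a homolog of a yeast U1 protein. The class was drawn wider than the U1 particle. It also holds Prpf38a and Prpf38b, which are not U1 proteins, with log2 fold changes of -0.15 ± 0.20 and -0.027 ± 0.14 (SE). Of the 7 genes placed in this class 6 had lower means in mutant cells, and Prpf39 was higher by 0.038 (log2). Snrpa was at 70.1, 93.6 and 84.1 CPM in the controls and 61.9, 71.5 and 83.6 CPM in the mutants, with overlapping groups (log2 fold change -0.19 ± 0.17, SE). Prpf40b was at 9.17, 4.08 and 7.66 CPM in the controls and 3.39, 6.66 and 5.35 CPM in the mutants. Here control 2, the highest library for 33 members, was the lowest control. The Prpf40b log2 fold change of -0.44 ± 0.37 (SE) was the most negative of all members and carried the widest interval.

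At the branch point and 3′ splice site, Sf1 binds the branch sequence first, U2af2 the polypyrimidine tract and U2af1 the terminal AG. Their log2 fold changes were -0.051 ± 0.14, -0.013 ± 0.19 and -0.055 ± 0.17 (SE). This class of 10 held 4 of the 11 members with a higher mean in mutant cells. They were Ddx46, the ortholog of yeast Prp5 (0.18 ± 0.16), Zrsr2 (0.15 ± 0.13), Sugp1 (0.080 ± 0.13) and Puf60 (0.067 ± 0.17). Zrsr2, an X-linked U2AF relative that serves the minor spliceosome, was at 38.5, 35.9 and 37.3 CPM in the controls and 38.2, 41.7 and 43.9 CPM in the mutants. Mutant 2 and mutant 3 lay above every control and mutant 1 did not (edgeR adjusted p = 0.792), and the female library control 1 was not apart for this gene.

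Sugp1, whose protein is displaced from mutant SF3B1, was at 51.7, 54.6 and 58.3 CPM in the controls and 53.5, 61.2 and 59.3 CPM in the mutants. Dhx15, the helicase that SUGP1 activates, was at 379, 478 and 392 CPM in the controls and 335, 408 and 486 CPM in the mutants. Rbm17, a U2-associated factor, was at 103, 118 and 107 CPM in the controls and 68.4, 104 and 107 CPM in the mutants. Mutant 1 was low and the other mutants lay within the control range, and the log2 fold change of -0.24 ± 0.19 (SE) was -0.046 without that library. The median of the class was -0.018, and it was 0.023 with upper quartile scaling, 0.016 with the 1 CPM filter and 0.10 without mutant 1.

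For the U4/U6.U5 tri-snRNP and the Prp19 complex, 7 of 8 genes had lower means in mutant cells (median log2 fold change -0.073), and 4 of 8 did so without mutant 1 (median -0.0029). Prpf8, the scaffold of the catalytic centre, was at 829, 931 and 867 CPM in the controls and 737, 869 and 959 CPM in the mutants, with overlapping groups. Prpf19, the ubiquitin ligase of the activated spliceosome, was at 147, 197 and 154 CPM in the controls and 111, 135 and 173 CPM in the mutants. Prpf31, which bridges U4 and U6 to U5, was at 110, 152 and 113 CPM in the controls and 89.9, 103 and 128 CPM in the mutants. For these 2 genes mutant 1 and mutant 2 lay below every control and mutant 3 among them. Log2 fold changes were -0.25 ± 0.20 for Prpf19 and -0.22 ± 0.19 for Prpf31 (SE; edgeR adjusted p = 0.775 and 0.789), and -0.098 for each without mutant 1. Prpf18, a second-step factor, ran the other way in mutant 1, at 87.9, 94.4 and 86.9 CPM in the controls and 96.3, 77.5 and 80.7 CPM in the mutants.

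Lsm2 to Lsm8 encode the ring on U6 RNA, and Lsm1 replaces Lsm8 in the cytoplasmic ring that promotes mRNA decapping. Of these 8 genes 6 had lower means in mutant cells (median log2 fold change -0.16, and -0.056 without mutant 1). Lsm4 was at 43.7, 56.1 and 40.8 CPM in the controls and 40.4, 39.3 and 43.1 CPM in the mutants, and Lsm8 at 70.3, 74.3 and 64.5 against 58.5, 60.0 and 68.1 CPM. Both overlapped between the groups (log2 fold changes -0.20 ± 0.16 and -0.16 ± 0.13, SE). Lsm1 and Lsm7 had means within 0.02 (log2) of the control.

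Lsm10 and Lsm11 belong to the U7 snRNP, which processes the 3′ ends of replication-dependent histone mRNAs. Lsm12, Lsm14a and Lsm14b were taken by symbol only and placed beside them. Lsm10 was at 12.9, 11.5 and 11.95 CPM in the controls and 10.1, 10.7 and 9.92 CPM in the mutants. It was the other member without overlap, had the smallest p of all members (unadjusted p = 0.182, adjusted p = 0.746 in edgeR), and its log2 fold change of -0.24 ± 0.17 (SE) was -0.22 without mutant 1. Lsm11 was at 20.6, 23.7 and 25.6 CPM in the controls and 19.4, 22.1 and 21.4 CPM in the mutants (-0.15 ± 0.15). Lsm12 was at 119, 158 and 125 CPM in the controls and 96.8, 109 and 132 CPM in the mutants (-0.25 ± 0.17). This class of 5 kept a negative median in every fit that left out a library (-0.20 to -0.090), as did the Sm, tri-snRNP and Lsm ring classes.

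Taken over all members, differences among libraries were larger than those between the groups. Of the classes, only U7 and other Lsm had library means that separated, and narrowly. They were -0.075, 0.099 and -0.024 in control 1, 2 and 3 and -0.17, -0.14 and -0.11 in mutant 1, 2 and 3. Only 1 of its 5 genes, Lsm10, had groups without overlap (20%, against 14.1% of all genes). Lsm14a and Lsm14b lay above their control means in mutant 1 (0.027 and 0.10). Mutant 1 was the lowest of the 6 libraries for 41 of 58 members (70.7%, against 29.2% of all genes), and control 2 the highest for 33 (56.9%, against 18.9%). Relative to the control mean of each gene, 53 members were lower in mutant 1, 46 in mutant 2 and 15 in mutant 3, with medians of -0.25, -0.12 and 0.11 on the log2 scale. Control 2 was above the control mean for 51 members (median 0.18). The members took 0.763%, 0.824% and 0.778% of all counts in control 1, 2 and 3 and 0.698%, 0.768% and 0.866% in mutant 1, 2 and 3. The mutant group thus held both the lowest and the highest share.

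**Figure D3:**
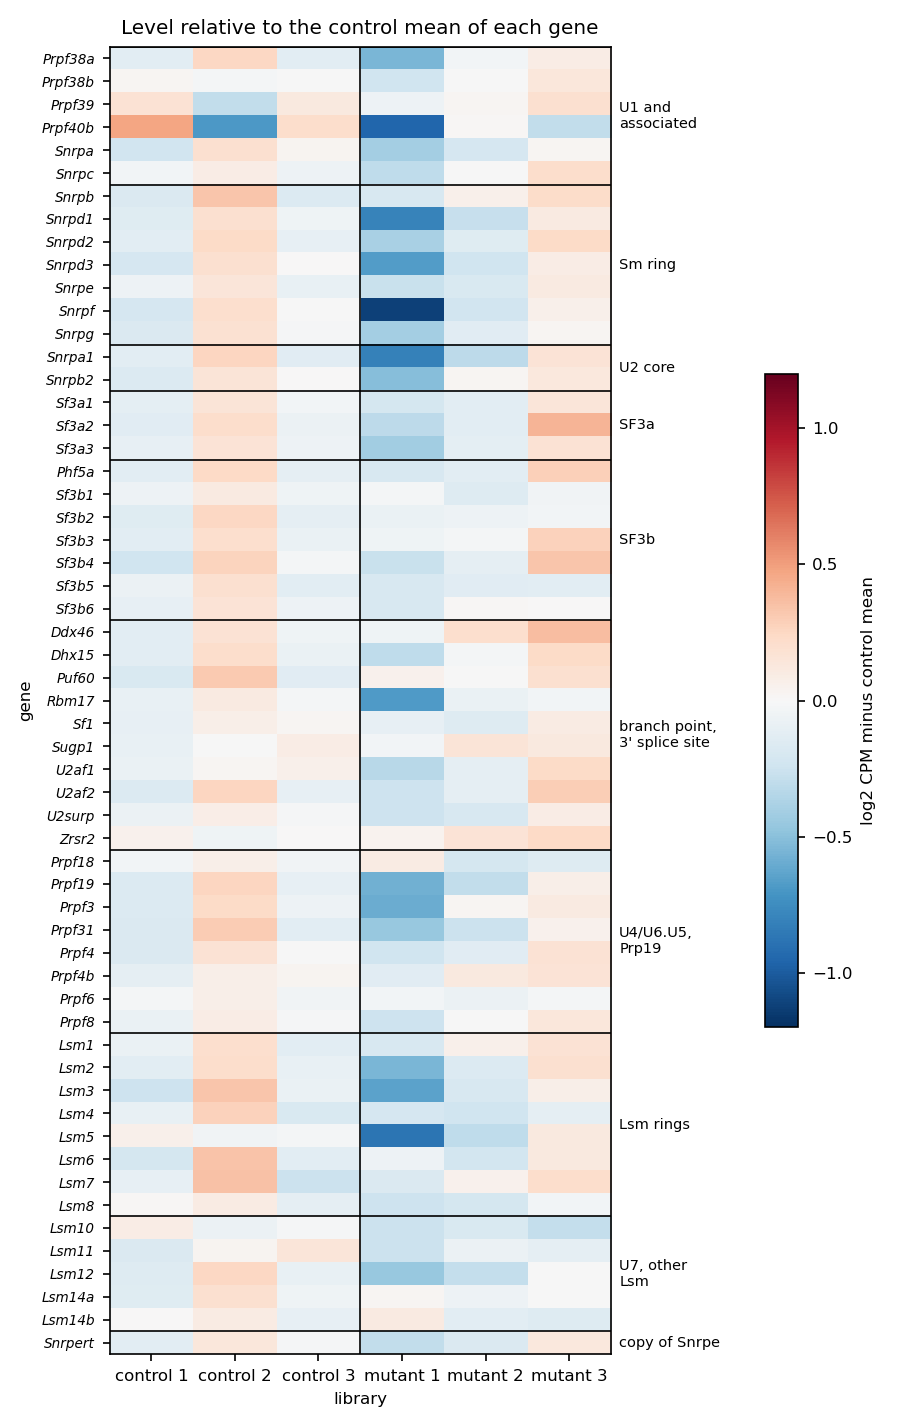
Log2 CPM of 57 tested members (rows, grouped by class) in each library (columns) minus the control mean of that gene, blue below and red above. The mutant 1 column is blue in 52 of 57 rows, down to -1.12 for Snrpf, and the control 2 column red in 50.

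The shift of mutant 1 was uneven across classes. Its mean level relative to control was -0.66 for the U2 core genes, -0.55 for the Sm ring and -0.44 for the U1 and associated class. It was -0.14 for SF3b and -0.19 for the branch point class. The SF3b genes in mutant 1 ran from -0.26 (Sf3b4) to -0.022 (Sf3b1), while the Sm genes ran from -1.12 (Snrpf) to -0.19 (Snrpb). In control 2, which had the opposite shift, the Sm ring and SF3b were alike, at 0.21 and 0.20. Among the 57 members with a coding sequence, the 26 with less than 1000 coding bases had a median of -0.36 in mutant 1 and the 31 longer ones -0.24. Over 12573 tested coding genes these medians were -0.043 and -0.0042. The length pattern was not particular to mutant 1. Across the 57 members Spearman's correlation of coding length with the level was 0.33 in mutant 1, 0.42 in mutant 2 and 0.094 in mutant 3, and 0.18, -0.29 and 0.31 in control 1, 2 and 3. In mutant 2 the shorter genes had a median of -0.17 and the longer ones -0.072. Across all coding genes the correlation ran from -0.18 (control 2) to 0.18 (control 1), as a description of points that share a library. All levels are taken from the same control mean, so the correlations of different libraries are not independent.

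Mutant 1 also stood apart in the genes of T cell state. It had the lowest mean of the 16 activation genes (-0.67, against -0.054 to 0.059 in control, 0.0020 in mutant 2 and -0.097 in mutant 3) and the highest mean of the 16 naive and quiescent genes (1.23, against -0.12 to 0.078, 0.15 and -0.17). Control 2 had the highest activation mean (0.059) and the highest mean of the spliceosome genes (0.14). It was also the highest control for the naive genes (0.078, against 0.044 in control 3). Mutant 3 was above only mutant 1 in activation mean (-0.097) and below only control 2 in spliceosome mean (0.096). Of the activation genes 12 had lower and 4 higher means in mutant cells, and of the naive and quiescent genes 14 had higher and 2 lower means. Every mutant library lay below every control in 5 activation genes (31.25%, against 7.48% of all genes), Irf4 and Slc3a2 among them. The same held for 1 naive gene, Dapl1 (6.25%). Irf4, induced by T cell receptor signals, was at 1024, 952 and 1051 CPM in the controls and 575, 723 and 750 CPM in the mutants, and Slc3a2, a subunit of amino acid carriers, at 164 ± 28.0 and 96.3 ± 22.2 CPM (SD, n = 3). Icos, a costimulatory receptor of activated T cells, ran the other way, at 94.9, 135 and 104 CPM in the controls and 235, 126 and 123 CPM in the mutants. Among the naive genes Cxcr4 was at 11.2 ± 2.81 and 34.1 ± 29.9 CPM and Slfn2 at 135 ± 57.5 and 224 ± 44.9 CPM. Dapl1, on the same list, was at 8.36, 13.3 and 14.7 CPM in the controls and 2.60, 8.19 and 6.90 CPM in the mutants. The part of these states in the levels of the spliceosome genes was not tested. Mutant 2, the library with the most B cell RNA, was between mutant 1 and mutant 3 in the mean level of the members (-0.10, against -0.32 and 0.096).

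**Figure D4:**
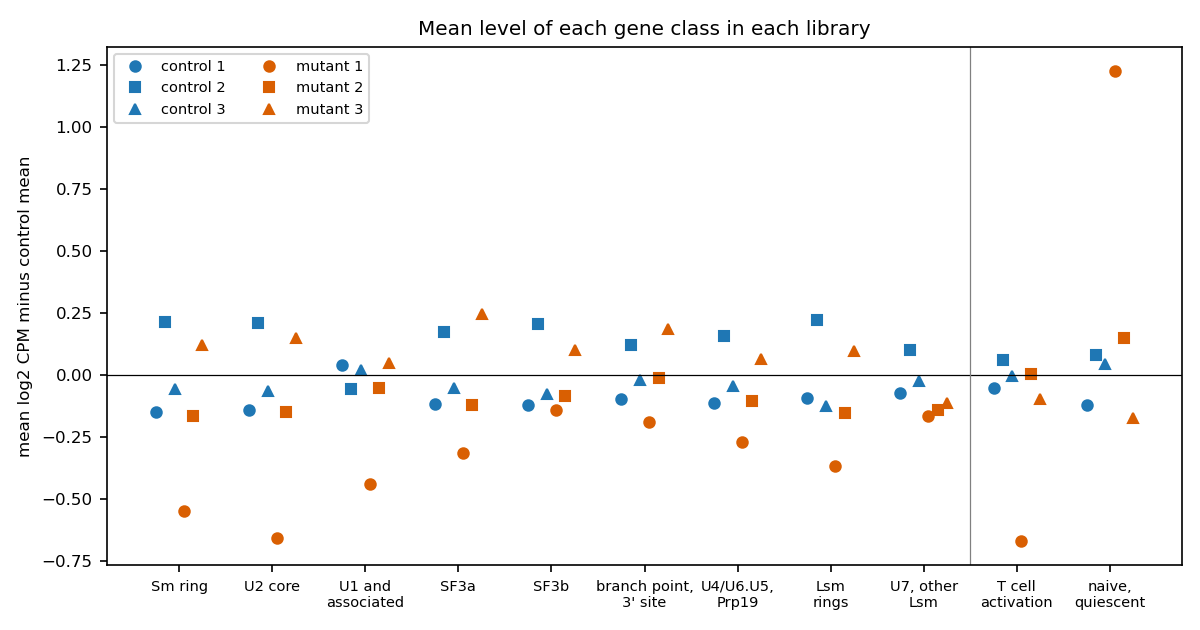
Mean log2 CPM of the genes of each class minus the control mean (y axis) in each library, control in blue and mutant in orange; the 2 rightmost columns are 16 activation and 16 naive or quiescent T cell genes. Mutant 1 lies lowest in every member class, from -0.66 for the U2 core to -0.14 for SF3b, and is at -0.67 and 1.23 in the T cell columns.

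Other genes of the splicing pathway, from lists outside the symbol rule, had like values. Of 30 further snRNP protein genes, 21 had a lower and 9 a higher mean in mutant cells (median log2 fold change -0.076), 16 of 30 were lower without mutant 1 (median -0.013), and 0 passed edgeR's test. Snrnp200, the helicase that unwinds U4 from U6, was at 376, 444 and 391 CPM in the controls and 327, 328 and 357 CPM in the mutants without overlap (-0.26 ± 0.13, SE; edgeR adjusted p = 0.705). It was 1 of 2 genes of this list without overlap, both lower in mutant cells (6.67%, against 7.48% of all genes). Htatsf1, which binds the U2 snRNP through SF3B1, was at 74.6, 98.0 and 81.9 CPM in the controls and 49.5, 65.9 and 75.1 CPM in the mutants (-0.42 ± 0.19; adjusted p = 0.666). Of 24 genes of the Prp19 complex and the activated spliceosome 17 were lower and 0 passed (median -0.071), and 11 of 24 were lower without mutant 1 (median 0.0048). Among them were Ppie at -0.28 ± 0.17 and Cwc27 at -0.31 ± 0.24 (-0.14 and -0.053 without mutant 1). Ppie was the only 1 of these 24 genes without overlap, lower in mutant cells (4.17%, against 7.48% of all genes).

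The SMN complex loads Sm rings onto snRNAs. Of its 16 genes and those of Sm protein assembly, 13 had lower means in mutant cells (median -0.19), 8 of 16 did so without mutant 1 (median -0.0072), and 0 passed edgeR's test. Gemin2, which holds the open Sm ring, was at 19.9, 21.8 and 22.0 CPM in the controls and 12.4, 15.9 and 18.1 CPM in the mutants. Snupn, the import adaptor of assembled snRNPs, was at 10.8, 12.4 and 10.2 CPM in the controls and 7.18, 8.47 and 8.53 CPM in the mutants. Both were lower in every mutant library and were the 2 genes of the list with an unadjusted p under 0.05 (12.5%, against 7.62% of all genes), with log2 fold changes of -0.45 ± 0.18 and -0.46 ± 0.19 (SE; edgeR adjusted p = 0.645 for each). Separation in the lower direction was seen in 2 of these 16 genes (12.5%, against 7.48% of all genes).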

How the data were processed

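Per the submitters' processing notes, STAR 2.7.8a, Partek and the builds GRCm39 and mm39 were used by the authors. Which step each served, the annotation and the strand setting: not given in the sources used here. Libraries came from 1.0 µg of total RNA depleted of ribosomal RNA, per the labels' protocols. Values deposited by the authors are estimated counts for each gene without normalization (57.8% whole). They were rounded, although whole counts had been assumed. Genes were filtered with filterByExpr (minimum count 10), leaving 18323 with 99.9% of the counts, and scaled by TMM. Mutant was compared with control by edgeR's quasi-likelihood test (edgeR 4.0.16, R 4.3.3; 6 samples, no covariates, two-sided, Benjamini-Hochberg threshold 0.05). SE is the absolute log2 fold change over the root of F. CPM use scaled library sizes, and relative log2 levels a prior count of 2. Replicate pairs all differed by more than counting error (chi-square over degrees of freedom 18.7 to 175), so none was counted as a duplicate. Tested on simulated data for this comparison (18323 genes), the procedure recovered 40 of 100 2-fold and 95 of 100 4-fold changes with 6 false calls. Changes were planted only in better expressed genes. Genes were drawn independently, without the shared library shifts seen here, so recovery in the real data may be lower.

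Members, classes, lists and tests were chosen with earlier results of these data known. Named genes were all SF3a and SF3b members, then per class up to 3 non-overlapping members and at least the 2 of smallest p, and 2 per other list. Others named were chosen after their values were seen. Alternatives were DESeq2 1.42.0, limma-voom (limma 3.58.1), 2 other scalings, 2 other filters, a table without mitochondrial and small RNA genes, a replicate block, and leaving out each library. Of the marker lists, 2 CD8 T cell genes summed to 5.81 to 40.4 CPM, 6 myeloid genes to 1.33 to 3.98 CPM and 3 dendritic cell genes to 0.25 to 2.24 CPM. Each of 3 NK and 4 erythroid genes was at most 0.76 CPM. Values of 1 member enter the counts and medians but are not reported here or drawn gene by gene.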

Additional observations from a re-analysis of the deposited data

How the results depend on the processing

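No member was called in any of the 14 alternatives. DESeq2 called 100 genes in all against 0 in edgeR. Same-numbered libraries did not deviate together (correlations of -0.048, -0.067 and -0.028), and the fit with the replicate number as a block called 0 genes and 0 members, with an Sf3b1 log2 fold change of -0.074. Sf3b1 stayed negative in all 14 alternatives. Members separated in the lower direction numbered 1 with DESeq2 size factors (7.56% of all genes), with the 1 CPM filter (7.22%) or without mitochondrial and small structural RNA genes (6.74%) and 0 with upper quartile scaling (5.75%). Those separated in the higher direction numbered 1 with that filter (7.32%) or that removal (7.23%). The class median of the branch point genes was 0.023 with upper quartile scaling and 0.016 with the 1 CPM filter. Log2 fold changes near 0 turned sign, namely Sf3a2 to -0.0060 (DESeq2), -0.011 (limma-voom), -0.00010 (no filter) and -0.011 (replicate block), Phf5a to 0.034, 0.027 and 0.011 and Sf3b4 to 0.038, 0.030 and 0.013 (upper quartile scaling, 1 CPM filter, removal of mitochondrial and small RNA genes). The cause was not tested.

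Leaving out 1 library at a time, members with lower means ranged from 30 to 54. Those separated in the lower direction ranged from 1 to 22 (fewer samples separate more easily) and in the higher direction from 0 to 4. Those with an unadjusted p under 0.05 in edgeR ranged from 0 to 2. The 22 and the 2 came from the fit without mutant 3, for which the shares of all genes are given above. For the other fits these shares are not printed, so the ranges describe the fits and are not a result about the members. Medians that changed sign ranged from -0.28 to 0.030 for the U1 and associated class, -0.40 to 0.014 for the U2 core, -0.23 to 0.044 for SF3a, -0.12 to 0.064 for SF3b and -0.15 to 0.10 for the branch point class. Log2 fold changes that changed sign ranged from -0.18 to 0.029 (Sf3a1), -0.23 to 0.17 (Sf3a2), -0.27 to 0.044 (Sf3a3), -0.17 to 0.12 (Phf5a), -0.15 to 0.064 (Sf3b2), -0.050 to 0.17 (Sf3b3), -0.20 to 0.14 (Sf3b4), -0.12 to 0.019 (Sf3b6) and -0.23 to 0.082 (Snrpb2). At this depth and 3 samples a group, 40 of 100 simulated 2-fold changes in better expressed genes were recovered, and smaller ones were not simulated.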
